A study of Homo sapiens with 12 samples.

Results

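The transcripts of the constitutive proteasome, the protease complex that breaks down ubiquitin-tagged proteins, were followed through RNA sequencing libraries of A549 cells, a human lung adenocarcinoma line. The set holds the 31 genes that encode the constitutive subunits of its 20S core and 19S cap, taken from a list of symbols and matched to the files by Ensembl identifier. A row was found for 30 of the 31, out of 57879 rows in each file: 13 of the 14 core genes and all 17 cap genes. The annotated identifier of PSMB3 had no row, so that beta subunit is not analysed here. All 30 passed the filter on low values, 1 FPKM or more in 2 or more libraries, and none was at 0 in any library; the tests ran over 13907 genes in all.

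The 8 libraries fall into 4 groups. TIF1γ libraries (replicates 2 and 3) come from cells whose genotype is labelled TIF1gamma over-expression, TIF1γ being the product of TRIM33, and their controls are titled Vector (replicates 1, 2 and 3) with the genotype label WT. The sh-TAF15 libraries (replicates 2 and 3) carry the genotype label TAF15 knockdown, and their control is titled sh-NC (replicate 2 alone), again with the label WT. By their titles both control groups carry a construct of their own, so neither is plain A549, and all cells grew in DMEM with 10% serum. The labels list 12 samples, and the other 4 are not analysed here. How the constructs were delivered, whether a line is a clone or a pool, and whether the numbered samples are separate cultures is not given in the labels, so p-values measure only the spread between these libraries, which may be technical.

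The proteasome is a barrel-shaped core of stacked alpha and beta rings, closed at its ends by caps. The alpha rings gate the channel, the beta rings hold the proteolytic sites, and the cap binds ubiquitin chains, removes them, and unfolds and threads in the substrate with a ring of ATPases. In mammalian cells the subunit genes are known to be induced together by NRF1 (NFE2L1) when proteasome activity falls, through antioxidant response elements in their promoters, and A549 cells are known for constant activity of the related factor NRF2 (NFE2L2).

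Promoter sequences are shown for the cap genes (PSMD1, PSMD12) and the core gene (PSMA4) with the lowest TIF1γ fold changes and for the 1 subunit gene that was called in any comparison (PSMD11), since the element named above lies in promoters. The RefSeq table (GRCh38.p14) gives windows running from 250 bases before to 50 bases after a transcript start, with 32 windows for 26 of the 31 genes. The antioxidant response element core, written TGACNNNGC and searched on both strands, was present in 7 of the 32 windows (21.9%), against 13.3% of all 35116 windows of the same length. The windows with it belong to PSMA4, PSMB3, PSMC4, PSMC5, PSMD1, PSMD12 and PSMD3. The matches, with the 9-letter motif in capitals, are shown for the scaffold gene PSMD1 (chr2:231056617-231056916, plus strand), the lid gene PSMD12 (chr17:67366528-67366827, minus strand) and the alpha subunit gene PSMA4 (chr15:78540536-78540835, plus strand, the 1 of its 3 windows that holds the motif). The motif begins 39 bases after the start of PSMD1, and at −165 and −126 from the starts of PSMD12 and PSMA4. The window of the lid gene PSMD11 (chr17:32444260-32444559, plus strand) holds no match. PSMD1, PSMD12 and PSMA4 were picked among genes with the motif. The windows of the cap genes PSMC6 and PSMD14, with TIF1γ log2 fold changes of −0.98 and −0.93, hold no match either.
PSMD1: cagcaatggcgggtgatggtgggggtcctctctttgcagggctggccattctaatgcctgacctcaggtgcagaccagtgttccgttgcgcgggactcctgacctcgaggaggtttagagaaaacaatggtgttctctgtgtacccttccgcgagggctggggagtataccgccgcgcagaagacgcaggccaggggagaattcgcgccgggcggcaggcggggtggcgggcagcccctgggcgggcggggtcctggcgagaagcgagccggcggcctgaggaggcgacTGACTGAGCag
PSMD12: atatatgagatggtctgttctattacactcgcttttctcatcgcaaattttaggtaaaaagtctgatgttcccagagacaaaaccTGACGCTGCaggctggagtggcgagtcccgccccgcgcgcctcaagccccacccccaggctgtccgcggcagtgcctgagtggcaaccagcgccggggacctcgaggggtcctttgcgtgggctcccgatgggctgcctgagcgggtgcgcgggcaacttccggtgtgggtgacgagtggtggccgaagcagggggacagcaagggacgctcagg
PSMA4: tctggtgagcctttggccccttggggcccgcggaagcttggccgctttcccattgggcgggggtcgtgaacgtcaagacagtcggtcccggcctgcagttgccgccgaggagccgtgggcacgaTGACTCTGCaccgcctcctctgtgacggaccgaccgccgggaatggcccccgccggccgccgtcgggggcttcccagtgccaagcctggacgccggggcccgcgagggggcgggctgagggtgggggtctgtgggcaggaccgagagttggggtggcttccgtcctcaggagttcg
PSMD11: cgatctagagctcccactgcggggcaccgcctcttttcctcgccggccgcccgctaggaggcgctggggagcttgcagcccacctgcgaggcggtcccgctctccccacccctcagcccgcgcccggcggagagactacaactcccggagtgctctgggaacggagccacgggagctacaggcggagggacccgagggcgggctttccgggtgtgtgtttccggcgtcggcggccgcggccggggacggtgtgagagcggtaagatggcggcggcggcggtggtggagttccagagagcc
The CCAAT box (CCAAT, both strands) was in 46.9% of the 32 windows, against 34.6% of all windows, and the GC box (GGCGGG, both strands) in 71.9%, against 45.0%. A match is a description of letters, and nothing was measured at these promoters.

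Transcript levels are given as FPKM, fragments scaled to transcript length and library size, divided by 1 factor per library (0.899 to 1.12) that aligns the bulk of the genes. FPKM is per length, so levels are set side by side between genes, though the lengths used are not given. In the annotation the median transcript length was 1029 bases for the core genes and 1991 for the cap genes. The deposited values of a library summed to between 881293 and 1356630, and between 12132 and 12622 genes reached 1 FPKM. Without read totals the depth is unknown, and no counting interval is given. TRIM33 had 7.64 and 6.62 scaled FPKM in TIF1γ libraries, against 2.37, 2.19 and 1.41 in vector libraries, with a log2 fold change of 1.46 (SE 0.272, limma adjusted p = 0.13). The annotated identifier of TAF15 had no row, so its knockdown was not checked. Of the epithelial markers, KRT8 and KRT18 were listed at 0 in both TIF1γ libraries, and the summed epithelial markers were 69.0 to 79.7 scaled FPKM in TIF1γ, 10836 to 12016 in vector, 3160 to 3920 in sh-TAF15 and 2405 in sh-NC libraries. An exact 0 beside such values can be a failed estimate, and both genes were set aside from the tests. KRT8 and KRT18 made up nearly all of the sums outside TIF1γ libraries, so the sums hide the other epithelial markers. KRT19 had 58.5 and 66.7 scaled FPKM in TIF1γ libraries, against 28.7, 32.1 and 46.3 in vector libraries. It had 0.72 and 0.54 in sh-TAF15 libraries and 0.23 in the sh-NC library. TIF1γ and vector libraries overlapped for CDH1 (log2 fold change 0.43) and EPCAM (−0.47). Genes known to be high in A549 (NQO1, AKR1B10, AKR1C1 and ALDH1A1) summed to 9585 to 9975 in TIF1γ, 9137 to 10114 in vector, 3544 to 4015 in sh-TAF15 and 2985 in sh-NC libraries, while CDKN2A and CDKN2B, deleted in the line, summed to at most 1.87. Endothelial markers summed to at most 0.288 scaled FPKM, fibroblast markers to 0.435 to 5.57 and leukocyte markers to 4.27 to 33.4, nearly all of it CD14, with CD3E at 0 throughout. Vector replicate 3 ranked closer to TIF1γ replicate 3 (Spearman's rho 0.973 over genes) than to vector replicates 1 and 2 (0.962 and 0.948). The part of these differences in the results that follow was not tested. In bulk RNA, fewer cells of a kind and less RNA per cell cannot be told apart.

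All 30 subunit transcripts were abundant, and the core was expressed above the cap in every library. The mean log2(scaled FPKM + 1) of the 13 core genes exceeded that of the 17 cap genes by 1.40 and 1.23 in TIF1γ, 1.13, 1.36 and 1.14 in vector, 1.03 and 1.28 in sh-TAF15 and 1.00 in sh-NC libraries. The TIF1γ, vector and sh-TAF15 libraries overlapped in this difference, and the sh-NC library was the lowest of the 8. The difference averaged 1.31 ± 0.12 in TIF1γ (SD, n = 2), against 1.21 ± 0.13 in vector (n = 3), and 1.16 ± 0.17 in sh-TAF15 (n = 2), against 1.00 in the lone sh-NC library. Summed over genes, the core held 1.39 to 1.73 times the scaled FPKM of the cap. The subunits together made up 0.569% and 0.496% of all FPKM in TIF1γ libraries, against 0.628%, 0.637% and 0.511% in vector libraries, and 0.694% and 0.689% in sh-TAF15 libraries, against 0.687% in the sh-NC library.

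**Figure D1:**
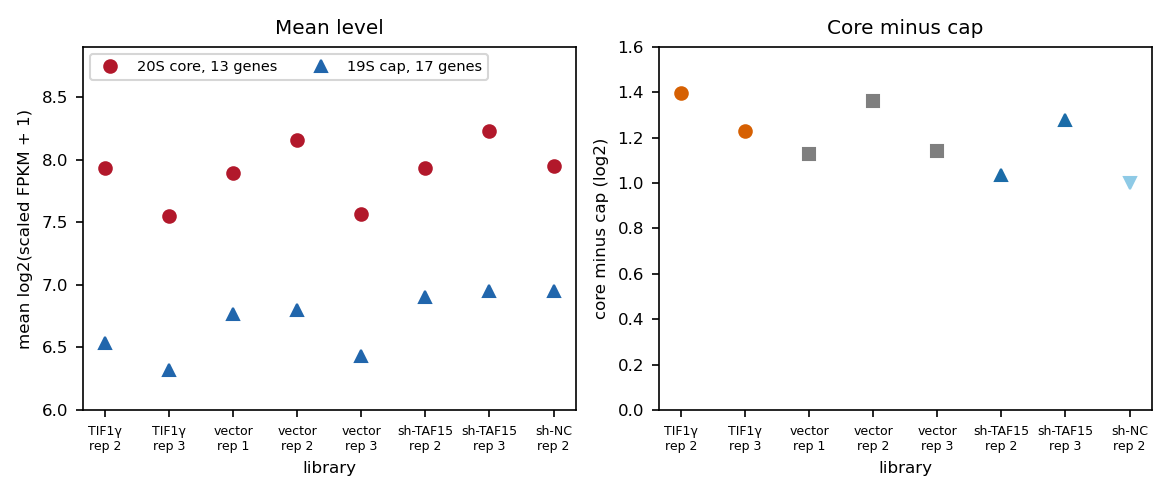
Core and cap transcripts by library. Mean log2(scaled FPKM + 1) of 13 core and 17 cap genes is plotted on the left and the core mean minus the cap mean on the right, each point being 1 library. The core lies above the cap in all 8 libraries, by 1.00 to 1.40.

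The cap genes, and the core genes as well, were spread over a wider range of levels in TIF1γ libraries than in the other libraries. The highest cap gene in every library was PSMD8, a lid subunit, and the lowest was PSMD12, another lid subunit, or PSMC6, an ATPase. Their ratio was 58.8 and 41.5 in TIF1γ libraries, against 12.7, 15.7 and 26.7 in vector libraries, and 9.81 and 12.7 in sh-TAF15 libraries, against 8.69 in the sh-NC library. Both TIF1γ libraries lay above all others, and vector replicate 3 was the highest of the rest. The SD of log2 levels over the 17 cap genes was also highest in both TIF1γ libraries and next highest in vector replicate 3, with 1.79 and 1.48 in TIF1γ, 1.02, 1.13 and 1.30 in vector, 0.863 and 0.968 in sh-TAF15 and 0.779 in sh-NC libraries. In the core the ratio was 11.3 and 8.53 in TIF1γ libraries, against 7.50, 7.94 and 7.19 in vector libraries, and 5.29 and 6.54 in sh-TAF15 libraries, against 5.91 in the sh-NC library. The SD over the core genes was 1.29 and 1.06 in TIF1γ and 0.870, 0.903 and 0.970 in vector libraries. It was 0.765 and 0.800 in sh-TAF15 and 0.743 in sh-NC libraries. In ratio and SD, both TIF1γ libraries were again the highest. The ratios and these SDs were not tested or set against the spread of other genes. The GC content of the transcript was 55.0% for PSMD8, 37.9% for PSMD12 and 36.8% for PSMC6. Across the 17 cap genes, Spearman's rho between transcript GC and TIF1γ log2 fold change was 0.944, against 0.746 across all genes with a value. The part of base composition in the wider range was not tested. The SD of the log2 level of a subunit gene over the 8 libraries ranged from 0.199 (PSMA6) to 0.779 (PSMD12), with a median of 0.319, against 0.435 over all genes tested and 0.399 over those at 10 FPKM or more, a difference that was not tested.

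**Figure D2:**
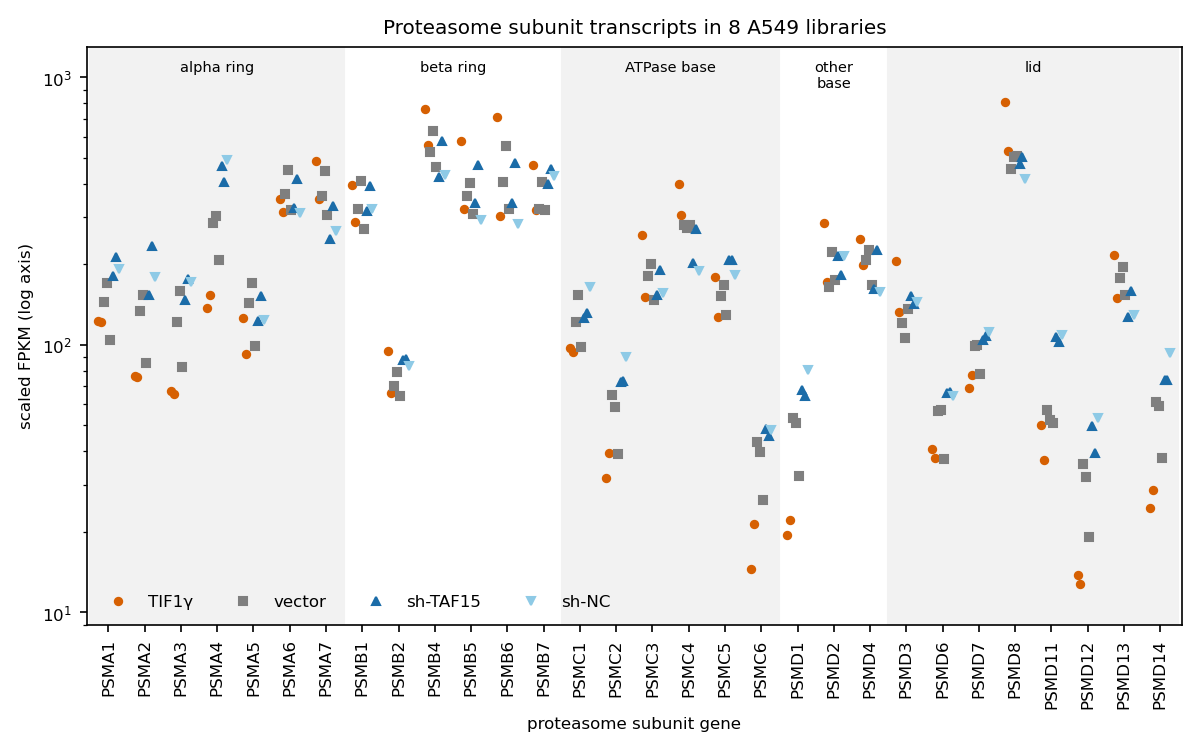
Scaled FPKM of the 30 subunit genes in the 8 libraries, on a log axis, ordered by role; each point is 1 library and its symbol and colour give the group. PSMD8 (418 to 810) and PSMB4 (426 to 762) are the highest by mean in the cap and the core, and PSMD12 (12.8 to 53.5) is the lowest, with its TIF1γ points under all others.

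The catalytic subunits had high levels with no call in any comparison. PSMB5 carries the chymotrypsin-like site and had 581 and 322 scaled FPKM in TIF1γ libraries, against 359, 402 and 307 in vector libraries, and 338 and 471 in sh-TAF15 libraries, against 293 in the sh-NC library. PSMB6, which carries the caspase-like site, had 711 and 303 in TIF1γ libraries, against 408, 553 and 322 in vector libraries, and 341 and 479 in sh-TAF15 libraries, against 283 in the sh-NC library. PSMB7, which carries the trypsin-like site, had 470 and 321 in TIF1γ libraries, against 321, 406 and 320 in vector libraries, and 400 and 455 in sh-TAF15 libraries, against 427 in the sh-NC library. In all of them TIF1γ replicate 2 was the highest library of the TIF1γ and vector lines, TIF1γ replicate 3 lay within or below the vector libraries, and the groups overlapped. The log2 fold changes of TIF1γ over vector were 0.29 for PSMB5 (SE 0.29), 0.15 for PSMB6 (SE 0.358) and 0.16 for PSMB7 (SE 0.256), with limma adjusted p-values of 0.559, 0.817 and 0.721. PSMB6 and PSMB7 turned below 0 when values were rescaled to equal library sums, and all 3 did without TIF1γ replicate 2.

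Of the other beta subunits, PSMB4 had 762 and 558 scaled FPKM in TIF1γ libraries, against 529, 632 and 463 in vector libraries, and 426 and 580 in sh-TAF15 libraries, against 431 in the sh-NC library. It was the most abundant core transcript by mean and does not carry a proteolytic site. PSMB2, the least abundant core transcript by mean, had 95.0 and 66.2 in TIF1γ libraries, against 70.5, 79.6 and 64.4 in vector libraries, and 88.0 and 88.7 in sh-TAF15 libraries, against 83.1 in the sh-NC library. Over the 6 beta genes the TIF1γ fold changes were 0.04 to 0.29 on the log2 scale, all 6 above 0 (51.3% of all genes were), but 2 of 6 after rescaling to equal library sums, 1 of 6 without TIF1γ replicate 2, 4 of 6 without vector replicate 3 and 5 of 6 with the GC and length trend removed.

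In the alpha ring, 6 of 7 genes had a lower fitted level with TIF1γ, where 51.3% of all genes had a higher one. In 3 of the 7 every TIF1γ library lay below every vector library, as in 19.3% of all genes. PSMA4 had 137 and 154 scaled FPKM in TIF1γ libraries, against 285, 303 and 208 in vector libraries. PSMA3 had 67.2 and 65.5 in TIF1γ libraries, against 122, 159 and 82.6 in vector libraries. The third gene without overlap was PSMA2, with 76.3 and 75.8 in TIF1γ libraries, against 135, 154 and 85.7 in vector libraries. The log2 fold change was −0.85 for PSMA4 (SE 0.25, limma adjusted p = 0.2) and −0.81 for PSMA3 (SE 0.278, adjusted p = 0.201), neither passing the test. The median over the ring was −0.32. With the GC and length trend removed it was −0.068, against −0.0026 over all genes, and 6 of 7 were still lower.

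Over all 30 genes, the comparison of TIF1γ with vector made 0 calls at an adjusted p under 0.05 (limma, Benjamini-Hochberg over all 13907 genes), where 0.0216% of all genes were called. At an unadjusted p under 0.05 there were 0 subunit genes higher and 8 lower, against 8.53% of all genes higher and 11.4% lower. In 10 of the 30, every TIF1γ library lay below every vector library (19.3% of all genes did), in 2 above (17.3% of all genes), and in 18 they overlapped. The median log2 fold change was 0.04 for the core and −0.30 for the cap, against 0.02 over all genes tested; with values rescaled to equal library sums, which moves the median of all genes to −0.13, the core and cap medians were −0.18 and −0.51. With 1 library left out, the core median was lowest without TIF1γ replicate 2, at −0.19, and highest without TIF1γ replicate 3, at 0.26, so its sign rests on single libraries.

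Within the cap, TIF1γ log2 fold changes ran from −0.98 to 0.33 over the 6 ATPase genes, from −1.06 to 0.26 over the 3 other base genes and from −1.03 to 0.46 over the 8 lid genes. PSMD1, a scaffold of the base, had 19.5 and 22.2 scaled FPKM in TIF1γ libraries, against 53.1, 51.2 and 32.4 in vector libraries. PSMD12 of the lid had 13.8 and 12.8 in TIF1γ libraries, against 36.0, 32.1 and 19.1 in vector libraries. In both, TIF1γ libraries lay below all vector libraries and vector replicate 3 lay nearest to them. The log2 fold change was −1.06 for PSMD1 (SE 0.254) and −1.03 for PSMD12 (SE 0.275), with a limma adjusted p of 0.2 for each.
PSMC6 and PSMD14 are named because of their call without vector replicate 3, after their values were seen. PSMC6, an ATPase of the base, had 14.5 and 21.4 scaled FPKM in TIF1γ libraries, against 43.4, 39.9 and 26.4 in vector libraries, a log2 fold change of −0.98 (SE 0.265). PSMD14, the deubiquitinase that strips ubiquitin chains from the substrate, had 24.7 and 28.7 in TIF1γ libraries, against 61.5, 59.1 and 37.9 in vector libraries, a log2 fold change of −0.93 (SE 0.253). Their limma adjusted p was 0.2, and their groups did not overlap. Without vector replicate 3, PSMD1 (−1.29), PSMD12 (−1.30), PSMC6 (−1.19) and PSMD14 (−1.15) were called lower (limma adjusted p = 0.0417, 0.0417, 0.0434 and 0.0428), where 1.42% of 13753 genes were called lower.

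At the other end, the lid genes PSMD3 and PSMD8 had higher fitted levels with TIF1γ that did not pass the test. PSMD3 had 206 and 133 scaled FPKM in TIF1γ libraries, against 121, 107 and 136 in vector libraries. PSMD8 had 810 and 530 in TIF1γ libraries, against 456, 504 and 510 in vector libraries. TIF1γ replicate 2 was far above the vector libraries for both genes, while TIF1γ replicate 3 overlapped them for PSMD3 and lay just above them for PSMD8. The log2 fold changes were 0.46 (SE 0.254, limma adjusted p = 0.31) and 0.42 (SE 0.252, adjusted p = 0.341).

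**Figure D3:**
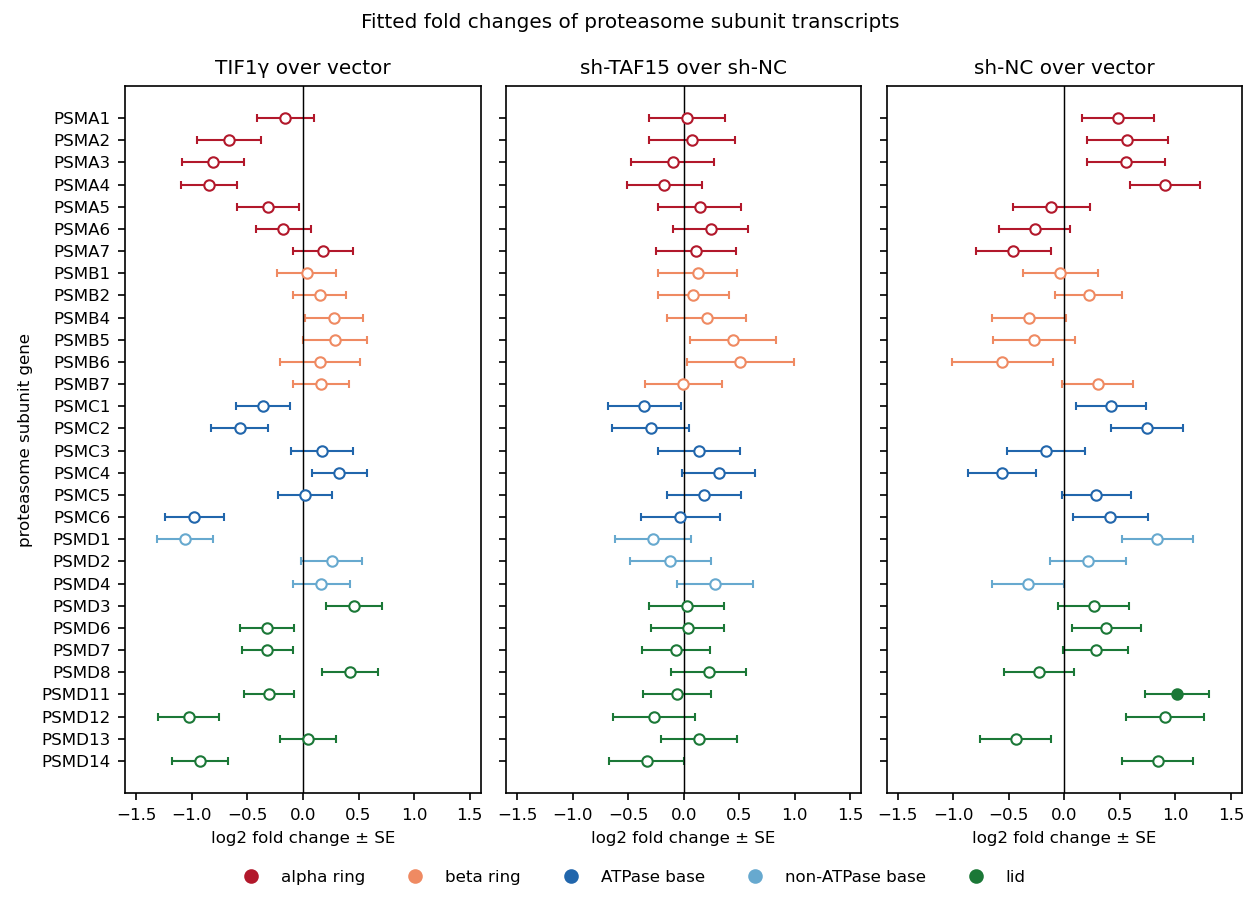
Fitted log2 fold change of each of the 30 subunit genes, with its SE, in the comparisons of TIF1γ with vector, sh-TAF15 with sh-NC, and sh-NC with vector; colour gives the role of the gene and a filled point a call at an adjusted p under 0.05. With TIF1γ, 6 of 7 alpha subunits lie below 0 and all 6 beta subunits above it, where 51.3% of all genes lie above it. With values rescaled to equal library sums, 2 of 6 beta subunits lie above 0. PSMD11 is the 1 filled point, in sh-NC against vector.

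Subunit genes with GC-rich transcripts had higher TIF1γ fold changes than those with GC-poor transcripts. Transcript GC ran from 36.8% (PSMC6) to 58.6% (PSMD3), with a median of 42.1% in the alpha ring, 50.8% in the beta ring and 48.7% in the cap. Across the 30 genes, which share the same libraries, Spearman's rho between GC and log2 fold change was 0.844, and it was 0.746 across all 13534 genes with a value, which share these libraries as well. The 6 subunit genes under 42% GC had a median log2 fold change of −0.74, against −0.51 for all genes of that GC, and the 6 at 54% or more had 0.29, against 0.40. With the GC and length trend of all genes removed from each library, PSMD1 stood at −0.76, PSMD14 at −0.74, PSMC6 at −0.50, PSMD12 at −0.47 and PSMA4 at −0.44, and the cap median at −0.13; rho over the 30 genes was then 0.442. In that limma fit 0 of the 30 were called, where 0% of all genes were, and 5 were lower at an unadjusted p under 0.05, against 4.59% of all genes.

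**Figure D4:**
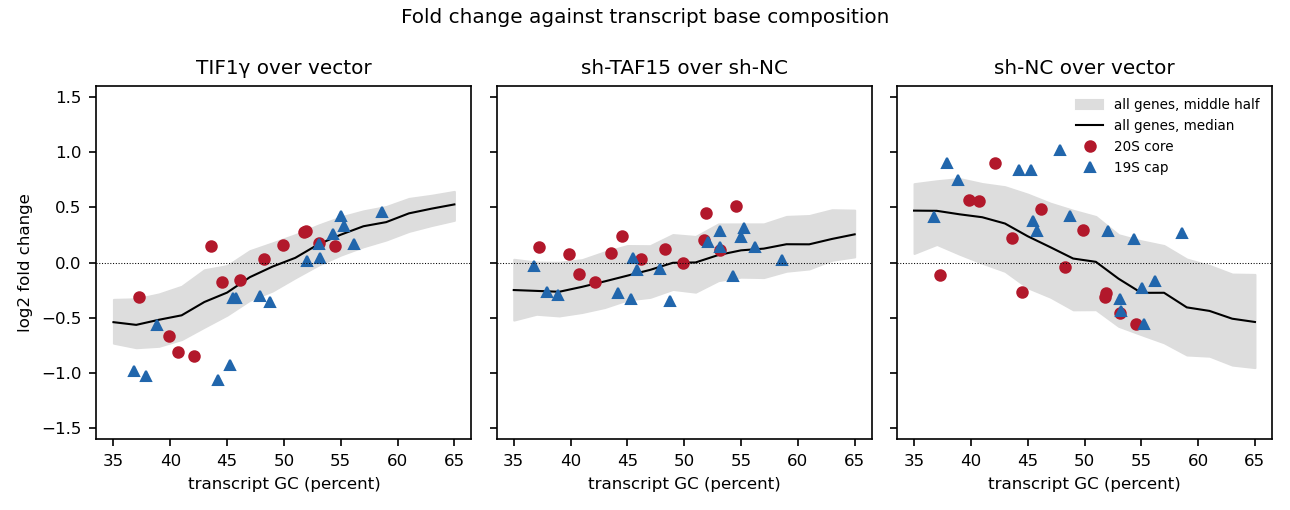
Log2 fold change of the 30 subunit genes against the GC percent of the transcript in the 3 comparisons, with the median (line) and the interquartile range (band) of all genes tested. Spearman's rho over the 30 subunit genes is 0.844 with TIF1γ, 0.489 with sh-TAF15 and −0.650 in sh-NC against vector.

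The comparison of sh-TAF15 with sh-NC rests on 1 sh-NC library, which is assumed to vary like the other groups. Of the 30 genes, 0 were called at an adjusted p under 0.05, where 0.0575% of all genes were called, and 0 had an unadjusted p under 0.05, against 5.62% of all genes. Log2 fold changes ran from −0.35 (PSMC1) to 0.51 (PSMB6), with a median of 0.11 in the core and −0.03 in the cap. Both sh-TAF15 libraries lay above the sh-NC library for 9 genes (35.3% of all genes), below it for 9 (37.8%), and on both sides for 12.
PSMC1, an ATPase, had 126 and 131 scaled FPKM in sh-TAF15 libraries, against 165 in the sh-NC library (SE of its log2 fold change 0.33, limma adjusted p = 0.958). PSMD14 had 74.0 and 73.9 in sh-TAF15 libraries, against 93.4 in the sh-NC library, a log2 fold change of −0.33. Both stood below the sh-NC library in each sh-TAF15 library. Among the higher ones, PSMC4, an ATPase, had 203 and 271 in sh-TAF15 libraries, against 188 in the sh-NC library (log2 fold change 0.32), and PSMD4, a ubiquitin receptor, had 162 and 227 in sh-TAF15 libraries, against 158 in the sh-NC library (0.28). In the core the largest were PSMB6 (0.51, SE 0.48) and PSMB5 (0.44, SE 0.389), and the lowest were PSMA4, with 465 and 408 scaled FPKM in sh-TAF15 libraries, against 492 in the sh-NC library (−0.17), and PSMA3, with 147 and 176 in sh-TAF15 libraries, against 173 in the sh-NC library (−0.10); limma adjusted p-values were 0.958 to 0.987 for these genes.

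The controls sh-NC and vector were compared as well, on 1 sh-NC library. Of the 30 genes, 1 was called, higher in sh-NC, where 11% of all genes were called and 3.78% were called higher. That gene was PSMD11, a lid subunit known to contact both the core and the base. PSMD11 had 109 scaled FPKM in the sh-NC library, against 57.2, 52.3 and 51.2 in vector libraries, and rose by 2.02-fold (log2 fold change 1.02, SE 0.288, limma adjusted p = 0.0376). It stood at 107 and 103 in sh-TAF15 libraries, level with sh-NC, and at 50.1 and 37.1 in TIF1γ libraries. The call was lost with the GC and length trend removed (0.88, adjusted p = 0.0665; 11.5% of all genes were called there) and when any 1 vector or sh-TAF15 library was left out (adjusted p = 0.0536 to 0.0777). It was also lost without a filter (adjusted p = 0.065), without trend and robust fitting (0.055) and with the replicate block (0.243), in limma.

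PSMA4 stood at 492 scaled FPKM in the sh-NC library, against 285, 303 and 208 in vector libraries, with a log2 fold change of 0.91 (SE 0.316, limma adjusted p = 0.083). PSMD12 stood at 53.5 in the sh-NC library, against 36.0, 32.1 and 19.1 in vector libraries (0.91, SE 0.348, adjusted p = 0.111). PSMA2 stood at 180 in the sh-NC library, against 135, 154 and 85.7 in vector libraries (0.57, SE 0.364, adjusted p = 0.323). All 3 lay above every vector library. The lowest were PSMC4, with 188 in the sh-NC library, against 280, 275 and 280 in vector libraries (−0.56), PSMB6 (−0.56), PSMA7, with 266 in the sh-NC library, against 360, 446 and 305 in vector libraries (−0.46), and PSMD13, with 129 in the sh-NC library, against 178, 195 and 154 in vector libraries (−0.44), none passing the test. The count at an unadjusted p under 0.05 was 6 higher and 0 lower, against 12.3% and 15.6% of all genes. The sh-NC library lay above every vector library for 17 genes (37.7% of all genes did), below for 9 (36.3%) and among them for 4. The median log2 fold change was −0.04 for the core and 0.29 for the cap, against 0.01 over all genes. Rescaled to equal library sums, which moves the median of all genes to 0.18, the cap median was 0.49. With the GC and length trend removed, the medians were 0.07 for the core and 0.34 for the cap, against 0.06 over all genes. Of the cap genes, 15 of 17 were then above 0, where 54.2% of all genes were.

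Every sh-TAF15 and sh-NC library lay above every vector and TIF1γ library for 11 of the 30 genes (16.3% of all genes did) and below for 1 (17.7%). The 11 were PSMA1 and PSMA4 of the core and PSMC2, PSMC5, PSMC6, PSMD1, PSMD6, PSMD7, PSMD11, PSMD12 and PSMD14 of the cap, and the 1 below was PSMC4. All of the 11 but PSMC5 (52.1%) had a transcript GC of 36.8% (PSMC6) to 47.9% (PSMD11), and PSMC4 had 55.2%. In sh-NC against vector, all genes under 42% GC had a median log2 fold change of 0.44. All genes at 54% or more had −0.40. The part of base composition in this split was not tested. The construct and any difference in handling between these sets of libraries cannot be told apart. This split uses the sh-TAF15 libraries together with the library they were compared with above, and it was not tested.

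Whether TIF1γ and sh-TAF15 shifted the subunits by different amounts was tested as the difference of the effects. Of the 30 genes, 0 were called (0.0431% of all genes were) and 0 had an unadjusted p under 0.05 (3.6% of all genes). The difference was above 0 for 9 of 30 (49.6% of all genes), with a median of −0.19 in the core and −0.17 in the cap. The highest of these values lay on PSMD3 (0.43) and the lowest on PSMC6 (−0.95, SE 0.444).

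The alternative beta subunits, which replace the catalytic ones in the immunoproteasome, were without a call for TIF1γ (0 of the 3 tested, limma). Of all genes, 0.0216% were called there. PSMB8 had 85.7 and 84.7 scaled FPKM in TIF1γ libraries, against 49.9, 61.4 and 63.7 in vector libraries (log2 fold change 0.55, SE 0.239, limma adjusted p = 0.236). PSMB9 had 80.8 and 69.1 in TIF1γ libraries, against 46.6, 57.6 and 44.3 in vector libraries (0.59, SE 0.245, adjusted p = 0.224). Both stood above every vector library, as 17.3% of all genes did. PSMB10 had 150 and 75.5 in TIF1γ libraries, against 80.1, 121 and 63.6 in vector libraries (0.32). With the GC and length trend removed, PSMB8 stood at 0.27, PSMB9 at 0.35 and PSMB10 at −0.12. PSMB11 and PSMA8, which are known from thymus and testis, were listed at 0 in all 8 libraries.
Of the activators and the inhibitor, 0 of 5 were called for TIF1γ, where 0.0216% of all genes were. PSME1, a subunit of the 11S activator, had 315 and 341 scaled FPKM in TIF1γ libraries, against 205, 243 and 254 in vector libraries (0.49, limma adjusted p = 0.269), without overlap. PSME2, of the same activator, had 224 and 220 in TIF1γ libraries, against 190, 224 and 210 in vector libraries (0.097, adjusted p = 0.833). The inhibitor PSMF1 had 215 and 159 in TIF1γ libraries, against 130, 78.5 and 189 in vector libraries (0.56, adjusted p = 0.353). The groups overlapped for both PSME2 and PSMF1. PSME4, the gene of the nuclear activator PA200, had 4.60 and 9.51 in TIF1γ libraries, against 15.0, 13.6 and 9.85 in vector libraries (−0.83, SE 0.3, adjusted p = 0.206). After trend removal PSME1 stood at 0.29, PSME2 at −0.26, PSMF1 at 0.72 and PSME4 at −0.42, none passing the test. In the 9 assembly chaperones 0 were called for TIF1γ (0.0216% of all genes). POMP, which helps the core mature, was at 62.9 and 45.7 in TIF1γ libraries, against 80.7, 98.2 and 51.6 in vector libraries (−0.46, adjusted p = 0.351). After trend removal POMP stood at −0.0071.

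Regulators of the subunit genes showed no call for TIF1γ either (0 of 8), where 0.0216% of all genes were called. NFE2L1 had 37.6 and 60.6 scaled FPKM in TIF1γ libraries, against 36.5, 28.9 and 54.8 in vector libraries (log2 fold change 0.29, limma adjusted p = 0.571), and the groups overlapped. NFE2L2 had 7.28 and 16.2 in TIF1γ libraries, against 21.3, 20.9 and 15.1 in vector libraries (−0.74, adjusted p = 0.225). MAFK, a small MAF partner of both, had 40.8 and 49.3 in TIF1γ libraries, against 22.7, 21.3 and 32.4 in vector libraries (0.82, SE 0.248, adjusted p = 0.2), all TIF1γ libraries above all vector libraries. MAFK and NFE2L2, and PSME4 above, were not among the genes fixed in advance for naming. Over the 8 genes of this list, 5 were above 0 and 3 below in TIF1γ (51.3% of all genes were above 0), with a median of 0.27. With the GC and length trend removed, 4 were above 0 and 4 below, with a median of 0.015. MAFK then stood at 0.36 (limma adjusted p = 0.65) and NFE2L2 at −0.52. None of these lists held a call for sh-TAF15 against sh-NC, where 0.0575% of all genes were called. In sh-NC against vector none of the 4 did, where 11% of all genes were called (11.5% with the trend removed). With the GC and length trend removed, 1 did there: PSMB9 stood at 72.7 in the sh-NC library, against 46.6, 57.6 and 44.3 in vector libraries, a log2 fold change of 0.98 after the removal (limma adjusted p = 0.0142) and of 0.55 before it (adjusted p = 0.259).

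Counting could mix some genes. In the annotation, 24 pseudogenes are named for 7 subunit genes, none above 4.50 FPKM, and exons of PSMA2, PSMC5 and PSMD13 overlap a gene above 10 FPKM on the opposite strand. Whether strand was used in counting is not given in the sources used here.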

How the data were processed

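Per the submitters' processing notes the tools were HTSeq 0.6.1, HISAT2 2.0.1 and cutadapt 1.9.1, and the build was GRCh37. The deposited values are FPKM, and how the authors computed FPKM from the reads is not given in the sources used here. Names, transcript GC and length come from GENCODE 29 (GRCh38), which matched 51983 of 57879 identifiers.

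The filter asked for 1 FPKM or more in 2 libraries or more, and 19 genes with an exact 0 beside at least 100 FPKM were set aside, leaving 13907. A trimmed mean aligned each library with the mean library (the outer 30% of ratios and 5% of levels dropped on either side). Then log2(FPKM + 1) was fitted with limma 3.58.1 in R 4.3.3 (eBayes with trend and robust, 4 groups, no covariate, 4 residual degrees of freedom, prior 9.57). Fold changes on that scale understate changes of weakly expressed genes. P-values were adjusted by Benjamini-Hochberg over all genes, and a call is an adjusted p under 0.05. The spread of the single sh-NC library is taken from the other groups. Depth is unknown.

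One alternative removes a loess trend (span 0.4) on GC and length; others change pseudocount, filter, scaling or replicate block, or leave out a library. Members, gene lists and tests were chosen with earlier results of these data known. Genes given by library are the catalytic subunits, the 2 core and 2 cap genes at each end of a comparison, called genes, and the highest and lowest by level; others are marked.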

Additional observations from a re-analysis of the deposited data

How the results depend on the processing

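Over the alternatives, 604 values of the subunit genes chosen by the naming rule kept direction and side of the threshold, 24 reversed, 3 became calls and 9 lost one (PSMC6 and PSMD14, outside that rule, also became calls without vector replicate 3); the cause was not tested. For TIF1γ against vector, 3 genes were called in all; this became 5 with a pseudocount of 0.1, 0 without a filter, 1 with a filter of 5 FPKM, 0 with the GC and length trend removed, 5 with the exact-0 genes kept and 1 to 297 with a library left out, where 0 to 4 subunit genes were called (4 without vector replicate 3). The core median (0.04) ran from −0.19 to 0.26 with a library left out. The cap median was −0.51 rescaled to equal library sums, −0.13 with the trend removed and −0.34 to −0.094 with a library left out. Rescaling turned PSMB6 (−0.059), PSMB7 (−0.051) and PSMB2 (−0.058) below 0, and trend removal PSMB6 (−0.11). With a library left out PSMB2 ran from −0.098 to 0.41, PSMB5 from −0.13 to 0.71, PSMB6 from −0.45 to 0.77 and PSMB7 from −0.11 to 0.44. For sh-TAF15 against sh-NC, 8 called genes became 21 with the small pseudocount, 188 without a filter, 18 at 5 FPKM, 2 with the trend removed, 229 with only these groups fitted and 0 to 52 with a library left out. PSMB7 became 0.062 without scaling and 0.028 with only these groups, PSMB2 −0.012 rescaled and PSMA4 0.048 with the trend removed. With a library left out, PSMB7 ran from −0.095 to 0.090, PSMA3 from −0.23 to 0.031 and PSMB4 from −0.016 to 0.43. For sh-NC against vector, calls among the subunits were 0 without a filter, 2 rescaled (PSMA4 added), 0 with the trend removed, 0 without trend and robust fitting and 0 to 1 with a library left out; the cap median was 0.46 without scaling and 0.49 rescaled. Trend removal reversed PSMB5 (0.067), PSMB4 (0.022), PSMB2 (−0.053) and PSMD8 (0.22). The difference of effects had 6 calls, 103 without a filter, 2 with the trend removed and 1 to 18 with a library left out, when its core median ran from −0.52 to 0.13 and its cap median from −0.36 to 0.016. Leaving out the lone sh-NC library gives no value.

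The replicate block gave 44 calls for TIF1γ, 52 for sh-TAF15, 1000 for sh-NC against vector (1529 without it) and 30 for the difference, and 0 subunit genes for sh-NC, where PSMD11 was 0.98 (limma adjusted p = 0.243; 0.0138 to 0.243 over all alternatives). It turned PSMB7 (0.12) and PSMA3 (0.018) for sh-TAF15. Same-numbered libraries correlated by −0.373 to 0.171 in their deviations from group means, so the numbers were not taken as pairs.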

Other observations

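Of the genes that bring substrates to the proteasome or sit on it, 0 were called for TIF1γ against vector (0.0216% of all genes). Those named here were picked after their values were seen. Of 9 associated factors, 7 had a lower fitted level in TIF1γ than in vector libraries and 2 a higher one (51.3% of all genes were higher), with a median log2 fold change of −0.46. With the GC and length trend removed, 5 of the 9 were above 0 and 4 below, with a median of 0.017. UCHL5, a deubiquitinase of the cap, had 5.87 and 6.03 scaled FPKM in TIF1γ libraries, against 14.5, 15.7 and 7.02 in vector libraries (−0.88, SE 0.31, limma adjusted p = 0.206). ADRM1, the cap's ubiquitin receptor that binds UCHL5, had 406 and 259 in TIF1γ libraries, against 213, 253 and 201 in vector libraries (0.55, SE 0.267, adjusted p = 0.265). Neither pair of groups overlapped. After the GC and length trend was removed, UCHL5 stood at −0.25 and ADRM1 at 0.017. Of 14 ubiquitin and shuttle genes, 10 were above 0 and 4 below with TIF1γ, with a median of 0.12, and 8 and 6 with a median of 0.019 after that removal. The shuttle UBQLN1 was lowest, with 13.5 and 15.4 in TIF1γ libraries, against 32.3, 26.1 and 20.9 in vector libraries (−0.81, SE 0.25, adjusted p = 0.2). It stood at −0.50 with the trend removed.

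In sh-NC against vector, 1 of the 9 associated factors and 0 of the 14 ubiquitin and shuttle genes passed the test, where 11% of all genes were called. ZFAND5, a zinc-finger protein known to bind the proteasome, had 43.7 scaled FPKM in the sh-NC library, against 101, 91.2 and 83.6 in vector libraries, and fell by 1.05 on the log2 scale (SE 0.308, limma adjusted p = 0.043). The call was lost without scaling (−0.88, adjusted p = 0.0869), with values rescaled to equal library sums (−0.86, adjusted p = 0.138), without a filter (0.0976), without trend and robust fitting (0.0654), with the replicate block (−0.93, adjusted p = 0.268) and with any 1 vector or sh-TAF15 library left out (0.0529 to 0.115), and it held with the GC and length trend removed (−1.46, adjusted p = 0.00206). It had 33.6 and 29.8 in sh-TAF15 libraries. Of the 9 associated factors, 3 were higher and 1 lower at an unadjusted p under 0.05 there, against 12.3% and 15.6% of all genes, and of the 14 ubiquitin and shuttle genes 2 were higher and 2 lower.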
